A study of Mus musculus with 32 samples.

Results

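Conjugating enzymes of the Ugt, Sult and Gst families were followed in mouse kidney during acute injury by cisplatin, a platinum drug that binds DNA and is taken up by tubule cells. The set held every protein-coding gene of the count table whose symbol begins with Ugt, Sult or a soluble Gst class followed by a digit and whose mean raw count over the 32 libraries was at least 10. This gave 46 members, 17 Ugt, 8 Sult and 21 Gst genes, of 65 protein-coding genes with such symbols and 54532 genes in all. The members nearest above the count minimum were Gstm3 (mean 10.25 counts) and Ugt2b35 (10.69), and the nearest genes below it were Sult3a1 (7.28) and Sult4a1 (6.13). The mice were wild-type C57BL/6 males and females, 6 to 8 weeks old, and each library was the kidney RNA of 1 mouse. Each sex had 4 mice per time point, namely Day 0 and, following a single intraperitoneal dose of 20 mg/kg cisplatin, Day 2, Day 3 and Day 5. Day 0 mice were treated as healthy controls, as the study describes them in its results, although the labels of the Day 0 females list cisplatin and those of the Day 0 males list no treatment.

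Conjugation makes drugs, steroids and reactive lipids more soluble, so that they can be excreted. UDP-glucuronosyltransferases (Ugt) of the endoplasmic reticulum transfer a sugar acid, cytosolic sulfotransferases (Sult) transfer sulfate, and glutathione S-transferases (Gst) couple glutathione to electrophiles. In the kidney many of these enzymes are most abundant in the proximal tubule, and several mouse Ugt2b and Gsta genes are known to differ between the sexes. Glutathione conjugates, which cisplatin also forms, are cut by γ-glutamyltransferase and dipeptidases at the tubule brush border.

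The libraries held between 16502107 and 35961325 counted reads, and levels are given as CPM, which relates each count to the TMM-scaled library size over all 32 libraries. A level compared between genes is given per length as deposited FPKM. Several libraries stood apart. Xist, which is transcribed in females, had 4153 counts in the library labelled male Day 5 mouse 1, beside 387 counts of 4 Y-linked genes, against its label, while the other male libraries held 0 to 260 counts of Xist. The 4 female Day 0 libraries held 5 to 221 counts of the Y-linked genes, and the other female libraries held 0. The mitochondrial share of reads was between 77.9% and 79.8% for female Day 5 mouse 2 and male Day 5 mice 2, 3 and 4, and between 4.49% and 42.5% in the other libraries. Female Day 0 mouse 2 had a summed level of 10 hepatocyte markers of 12340 CPM against 20.4 to 405.1 in the other libraries. Female Day 0 mouse 4 had a mitochondrial share of 19.7%, against 4.49% to 10.1% in the rest of its group. Its thick limb and collecting duct markers summed to 1565 CPM (2809 to 3661 in the rest) and its adipocyte markers to 510.9 CPM (228.1 to 317.9). The summed level of 8 adrenal cortex markers was 1738 and 2099 CPM in female Day 3 mice 3 and 4, 520.9 to 1415 in the 4 female Day 5 mice, 495 in male Day 2 mouse 2 and 331.8 in female Day 0 mouse 2, where the remaining 3 mice of that group had 3.19 to 16.8. All 10 proximal tubule markers were detected in every group. Their sum was between 9211 and 14060 CPM at Day 0 and between 578.8 and 4653 CPM in the male Day 5 libraries. In bulk RNA, fewer cells of a type and less RNA per cell cannot be told apart.

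Per length and averaged over the 32 libraries, Gstm1 had the highest level (mean of 385.6 FPKM), followed by Gsta2 (219.7), the catecholamine sulfotransferase Sult1d1 (188.2), Ugt3a2 (170.2), Gstp1 (144.3) and Ugt2b38 (137.5). The order differed between the control groups. In the female Day 0 mice Gsta2 was at 384.8, 636.3, 638.9 and 340.5 FPKM and Gstm1 at 351.1, 516.7, 230.7 and 338.5 FPKM, so Gsta2 was the higher in each mouse. In the male Day 0 mice Ugt2b38 was at 502.1, 513.7, 674.5 and 279.2 FPKM and Gstm1 at 341.6, 284.8, 191.3 and 377.9 FPKM, so Ugt2b38 was the higher in 3 of 4. The lowest means were those of Ugt2b35 (0.0892 FPKM) and Ugt2b1 (0.143). Together the members took between 0.283% and 0.664% of the counts that were not mitochondrial. The family sums are given as levels, with no test between families, and the Ugt sum is weighted to its most counted genes. In male Day 0 mouse 1, for example, Ugt3a2 (1208 CPM) and Ugt2b38 (993 CPM) made up most of it. The summed Ugt level was 2757, 2679, 1843 and 1514 CPM in the 4 male Day 0 mice and 845, 546, 313 and 1313 CPM in the 4 female Day 0 mice, so the sexes did not overlap at Day 0. In the male Day 5 libraries it was 813, 169, 104 and 66.2 CPM, below every other male library. The summed Gst level stayed between 1310 and 2433 CPM in all 16 male libraries and between 1799 and 3791 CPM in the 16 female libraries. The summed Sult level was 418 to 538 CPM in the female Day 0 mice and 389 to 954 CPM in the female mice after cisplatin.

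**Figure D1:**
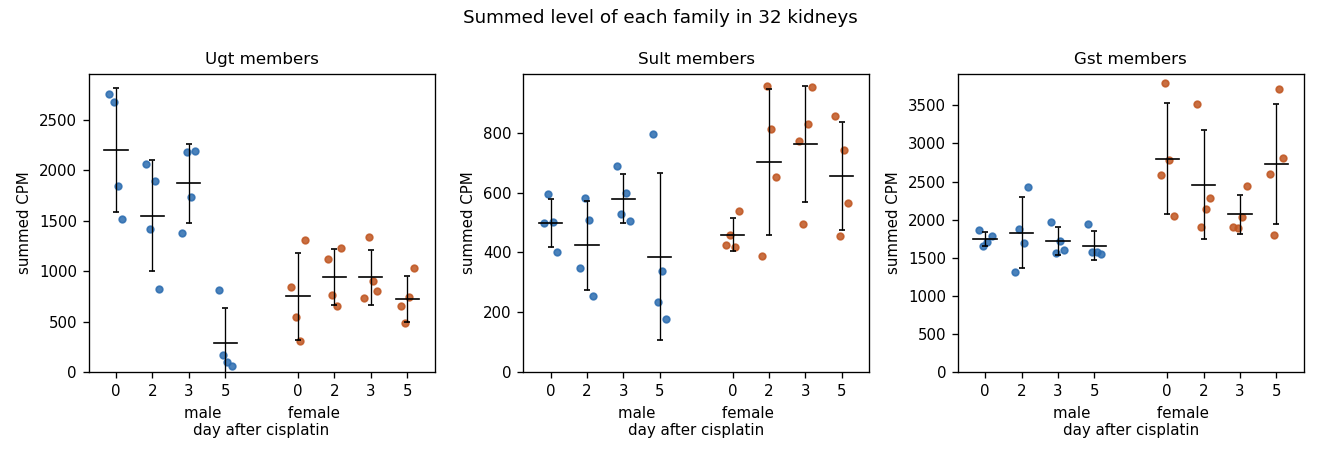
Summed level of the Ugt, Sult and Gst members (vertical axis, CPM) in each of the 32 kidneys by day after cisplatin (horizontal axis), males in blue and females in orange. Points are mice, horizontal lines are group means and bars are SD (n = 4), cut at 0. The Ugt sum of the male Day 5 libraries lies between 66.2 and 813 CPM, below every other male library, and the Gst sum of the same libraries lies between 1556 and 1942 CPM.

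Changes were tested with edgeR's quasi-likelihood test over all genes that passed a filter on low counts, and a gene was called at a Benjamini-Hochberg adjusted p under 0.05. Of the 46 members, 24 were called in at least 1 of 12 contrasts, 18 were tested and never called, and 4 (Ugt2b1, Sult2a8, Sult2a1 and Gstm3) were too low to be tested in any. The number of members tested, between 34 and 42 per contrast, depends on the groups compared, since a gene can pass the filter through the group in which it is high. In males, 0 of 39 members were called at Day 2, where 3.16% of all genes were called, 5 of 39 at Day 3 (all genes 24.5%) and 10 of 34 at Day 5 (all genes 19.2%). In females, 3 of 41 were called at Day 2 (all genes 1.93%), 3 of 41 at Day 3 (all genes 5.54%) and 0 of 40 at Day 5, where 0.258% of all genes were called. At an unadjusted p under 0.05 there were 5 of 39 members in males at Day 2, beside 4654 of 16051 genes, and 6 of 40 in females at Day 5, beside 2548 of 16260 genes. The DESeq2 Wald test called 2 and 4 members, and its share over all genes is not given here. Between the sexes, 4 of 38 members were called at Day 0 (all genes 0.449%), 6 of 40 at Day 2 (1.47%), 18 of 40 at Day 3 (21.3%) and 1 of 36 at Day 5 (0.276%). The median log2 fold change of the tested members, beside that of all genes, was 0.02 and 0.03 in males at Day 2, 0.02 and 0.02 at Day 3, and -0.31 and 0.04 at Day 5. In females it was -0.0036 and 0.03 at Day 2, -0.43 and 0.03 at Day 3, and -0.06 and 0.03 at Day 5. For males against females it was -0.70 for the members and -0.0016 for all genes at Day 0, -0.35 and -0.02 at Day 2, -0.29 and -0.02 at Day 3, and -0.90 and -0.0019 at Day 5.

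**Figure D2:**
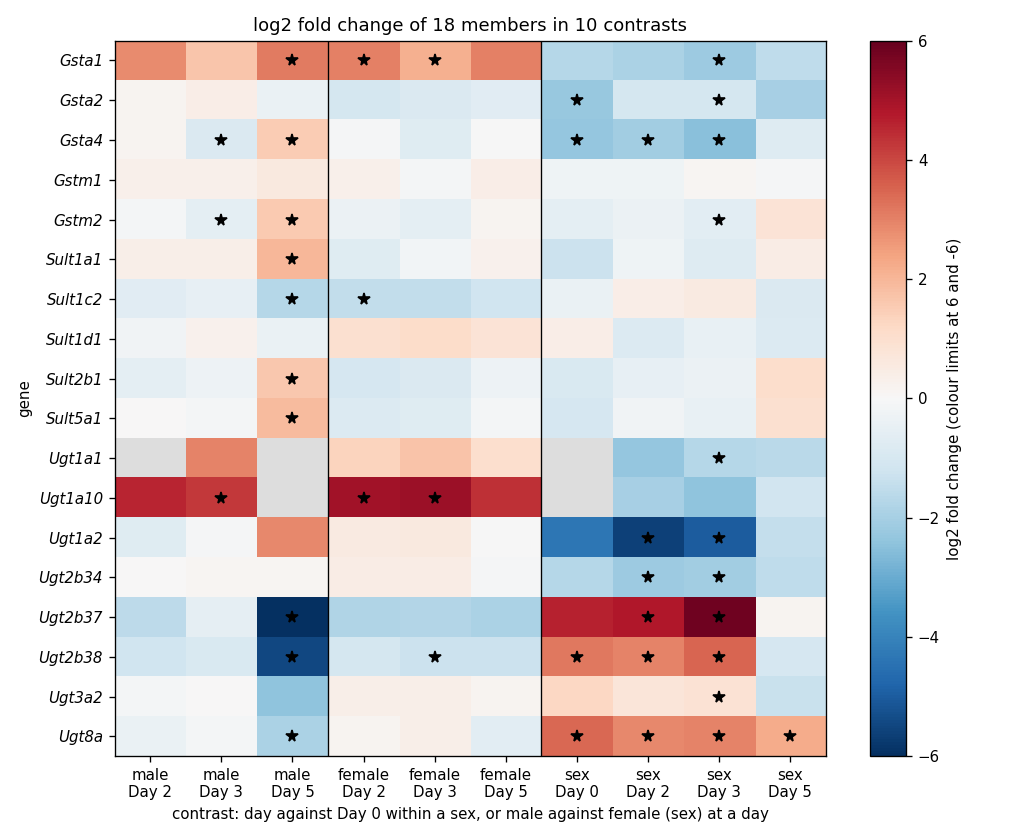
Log2 fold change (colour) of 18 members in rows in 10 contrasts in columns, with a star where the adjusted p was under 0.05 and grey where the gene was not tested. The first 6 columns compare a day with Day 0 within a sex, and the last 4 compare males with females. The rows Ugt2b37, Ugt2b38 and Ugt8a are red in the sex columns at Day 0, Day 2 and Day 3 and blue in males at Day 5, and Ugt1a10 is red wherever it was tested against Day 0.

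Ugt2b37, Ugt2b38 and Ugt8a were higher in males at both Day 2 and Day 3. Ugt2b37 and Ugt2b38, on chromosome 5 (GRCm38) with Ugt2a3 between them, belong to the Ugt2b subfamily that glucuronidates steroids and other lipophilic compounds. Ugt8a makes galactosylceramide, a membrane lipid. Ugt2b38 was at 993, 1002, 1192 and 529 CPM in the male Day 0 mice and at 180.2, 60.1, 77.1 and 107 CPM in the female Day 0 mice, so the highest female lay below the lowest male. It was called at Day 0 (log2 fold change 3.15, SE 0.42, adjusted p = 0.023), at Day 2 (log2 fold change 2.96, SE 0.477, adjusted p = 0.0137) and at Day 3 (log2 fold change 3.49, SE 0.254, adjusted p = 0.000119). Ugt8a was at 74, 77, 62.7 and 52.2 CPM in the male and 10.3, 3.26, 4.84 and 5.96 CPM in the female Day 0 mice, and was the only member called between the sexes on all 4 days. Its difference was log2 fold change 3.46, SE 0.35, adjusted p = 0.0153 at Day 0, log2 fold change 2.89, SE 0.284, adjusted p = 0.000681 at Day 2, log2 fold change 2.97, SE 0.222, adjusted p = 0.000152 at Day 3 and log2 fold change 2.23, SE 0.281, adjusted p = 0.0202 at Day 5. Ugt2b37 was at 167, 144, 173 and 60.6 CPM in the male Day 0 mice and 16, 4.07, 0.527 and 1.77 CPM in the female Day 0 mice. Its adjusted p was 0.0895 at Day 0, with a log2 fold change of 4.64. At Day 2 (log2 fold change 4.82, SE 0.555, adjusted p = 0.00173) and Day 3 (log2 fold change 5.81, SE 0.352, adjusted p = 8e-05) it was called, and the mice of the 2 sexes did not overlap on either day.

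At Day 2 and Day 3 the male excess of these 3 genes was called in each fit that left out 1 mouse, apart from Ugt2b38 at Day 2. At Day 3, Ugt2b38 passed in each of the 8 fits that left out 1 mouse, with a largest adjusted p of 0.0011. Ugt2b38 at Day 2 did not pass without any 1 of female Day 2 mice 2 and 3 (adjusted p of 0.0636 to 0.0652), while its log2 fold change stayed between 2.67 and 3.26 over the 8 fits. Ugt2b37 passed in each of the 8 fits that left out 1 mouse, with a largest adjusted p of 0.0112 at Day 2 and 0.000575 at Day 3, and Ugt8a passed in each of the 8 fits that left out 1 mouse, with a largest adjusted p of 0.00373 at Day 2 and 0.0013 at Day 3. The Day 0 calls were less firm. Ugt2b38 at Day 0 did not pass without any 1 of female Day 0 mice 2 and 3 and male Day 0 mice 1, 2 and 3 (adjusted p of 0.0555 to 0.118), and Ugt8a at Day 0 did not pass without any 1 of female Day 0 mice 2 and 3 and male Day 0 mice 1 and 2 (adjusted p of 0.0594 to 0.108). With female Day 0 mice 2 and 3 both left out, no member was called at Day 0 and the log2 fold changes were 2.72 for Ugt2b38 and 3.05 for Ugt8a. Ugt8a at Day 5 did not pass without any 1 of female Day 5 mice 1, 3 and 4 and male Day 5 mice 2 and 4 (adjusted p of 0.0517 to 0.163), and without the library labelled male Day 5 mouse 1 its log2 fold change was 2.44.

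The 250 bases upstream of the annotated starts of Ugt2b37 and Ugt2b38 are shown because the 2 genes shared both the male excess and, below, the fall at Day 5. They were taken from RefSeq (GRCm38.p6), both lie on the minus strand, at chr5:87254789-87255038 and chr5:87424204-87424453, and capitals mark bases that differ where the 2 align. Of 236 aligned bases, 225 were the same (95.3%) and 11 differed, and bases in lower case at the ends can lie outside the alignment.
Ugt2b37: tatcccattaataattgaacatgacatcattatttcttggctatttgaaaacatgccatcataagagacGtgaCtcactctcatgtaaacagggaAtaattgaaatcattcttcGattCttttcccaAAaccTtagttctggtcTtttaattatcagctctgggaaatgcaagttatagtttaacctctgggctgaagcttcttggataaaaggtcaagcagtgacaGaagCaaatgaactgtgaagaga
Ugt2b38: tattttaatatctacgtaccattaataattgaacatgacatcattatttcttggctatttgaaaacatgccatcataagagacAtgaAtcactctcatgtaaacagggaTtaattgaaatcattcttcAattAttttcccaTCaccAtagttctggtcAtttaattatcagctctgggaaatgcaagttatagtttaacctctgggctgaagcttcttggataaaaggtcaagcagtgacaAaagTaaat
Of the 100-base stretches of the annotated Ugt2b37 transcripts, only 1.06% were also found in another gene. For Ugt2b38 it was 24.2%, with Ugt2b5 and Ugt2b37 among the other genes, and for Ugt2b5 itself 24.7%. Reads of Ugt2b38 could thus be split or dropped in counting.

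Among the members lower in males were Gsta4 and Gsta2. Gsta4, which conjugates 4-hydroxynonenal and other products of lipid peroxidation, was at 29.6, 22.4, 35.5 and 42.5 CPM in the male Day 0 mice and 136, 215, 219.8 and 83.5 CPM in the female Day 0 mice. It was lower in males at Day 0 (log2 fold change -2.33, SE 0.36, adjusted p = 0.033), Day 2 (log2 fold change -2.10, SE 0.371, adjusted p = 0.0225) and Day 3 (log2 fold change -2.52, SE 0.118, adjusted p = 3.72e-06). At Day 3 the 4 males, at 20.6, 15.7, 18.4 and 17.2 CPM, lay far below the 4 females, at 86.8, 101, 107 and 119.5 CPM. Gsta2, an abundant alpha class transferase, was at 116, 74.2, 118 and 178 CPM in males and 471, 753, 713 and 406 CPM in females at Day 0. It was lower in males at Day 0 (log2 fold change -2.27, SE 0.345, adjusted p = 0.033) and Day 3 (log2 fold change -1.04, SE 0.232, adjusted p = 0.0153), with adjusted p values of 0.0907 at Day 2 and 0.166 at Day 5. Of its 100-base stretches, 28.4% were shared with other genes, Gsta1 among them.

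Ugt2b34 and Ugt1a2 were lower in males at both Day 2 and Day 3. Ugt2b34 was at 12.1, 16.5, 16.4 and 16.7 CPM in males and 45.3, 85.6, 87.1 and 67.2 CPM in females at Day 2, without overlap (log2 fold change -2.19, SE 0.222, adjusted p = 0.000741). At Day 3 the difference was of like size (log2 fold change -2.08, SE 0.115, adjusted p = 7.88e-06). Ugt1a2 was at 0.762, 5.85, 3.12 and 3.63 CPM in males and 229, 99.9, 75.2 and 259 CPM in females at Day 2 (log2 fold change -5.60, SE 0.629, adjusted p = 0.00148), and at 8.58, 2.82, 6.6 and 2.92 CPM against 109, 301, 138 and 129 CPM at Day 3 (log2 fold change -5.01, SE 0.53, adjusted p = 0.00124). Gsta4 at Day 3, Ugt2b34 and Ugt1a2 were each called in all 8 fits that left out 1 mouse, with largest adjusted p values of 6.75e-05 for Gsta4 at Day 3, 0.00506 and 9.47e-05 for Ugt2b34 at Day 2 and Day 3, and 0.0115 and 0.00699 for Ugt1a2. In 1 fit over all 8 groups, however, Ugt2b34 was not called at Day 2 or Day 3 (adjusted p of 0.0531 and 0.0598), nor was Ugt1a2 (0.0802 and 0.0934), with log2 fold changes of -2.17, -2.05, -5.60 and -4.98 in that order. Gsta4 at Day 0 did not pass without any 1 of female Day 0 mice 1, 2 and 3 and male Day 0 mice 1, 2, 3 and 4 (adjusted p of 0.0527 to 0.164) and at Day 2 did not pass without any 1 of female Day 2 mice 2 and 3 and male Day 2 mice 1, 2 and 3 (adjusted p of 0.0541 to 0.0869). Gsta2 at Day 0 did not pass without any 1 of female Day 0 mice 1, 2 and 3 and male Day 0 mice 1, 2 and 3 (adjusted p of 0.0662 to 0.164). With female Day 0 mice 2 and 3 both left out, the Day 0 log2 fold change was -1.73 for Gsta4 and -1.83 for Gsta2, and neither was called.

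**Figure D3:**
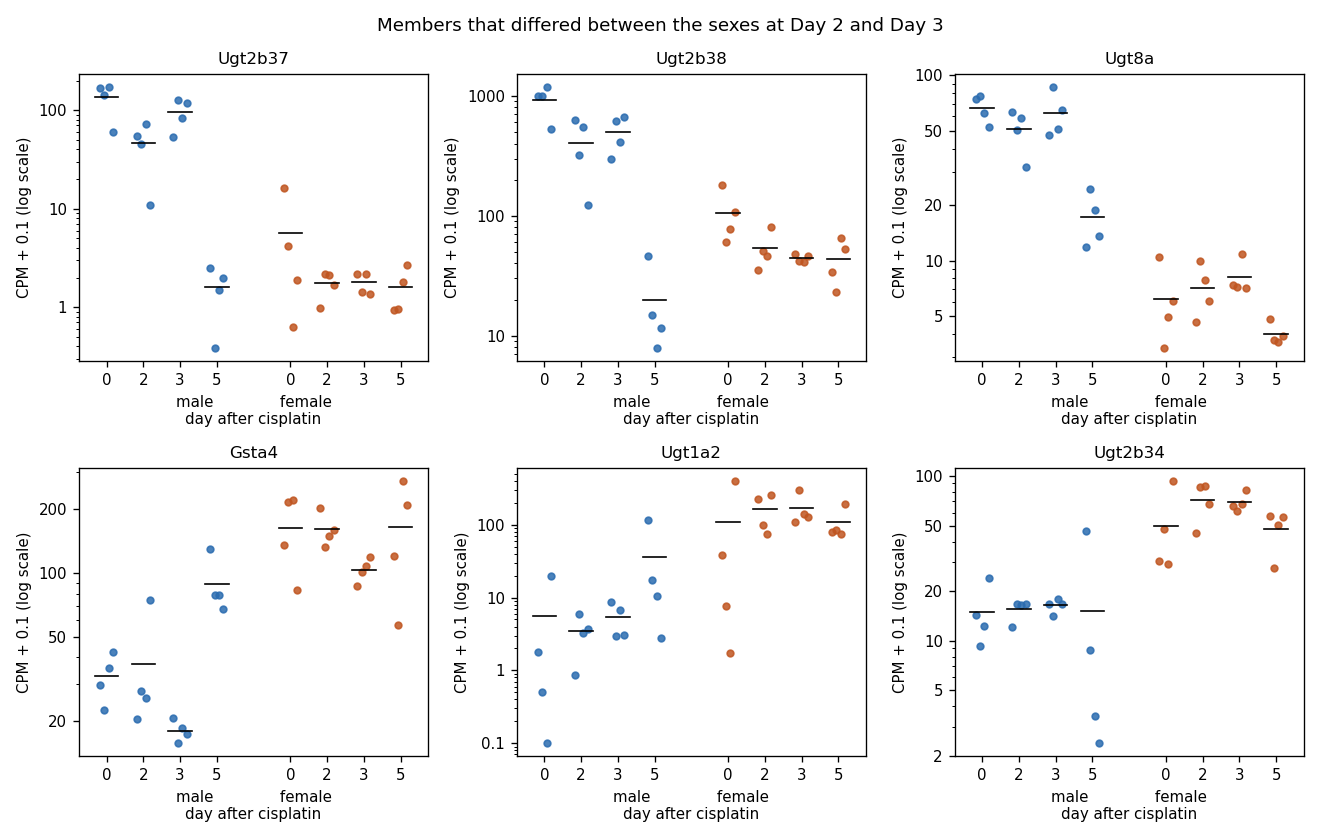
Level of 6 members in each kidney (vertical axis, CPM + 0.1 on a log scale) by day after cisplatin (horizontal axis), males in blue and females in orange, with group means as lines (n = 4). Ugt2b37, Ugt2b38 and Ugt8a lie higher in males through Day 3 and drop in the male Day 5 libraries, while Gsta4, Ugt1a2 and Ugt2b34 lie lower in males at Day 2 and Day 3, with no overlap between the sexes.

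Read against all genes, the share of members called between the sexes was 10.5% at Day 0, where 0.449% of all tested genes were called, 0.237% higher and 0.212% lower in males. At Day 2 it was 15% of the members against 1.47% of all genes (0.891% higher and 0.578% lower), and at Day 3 it was 45% against 21.3% (10.6% higher and 10.7% lower). At Day 5 it was 2.78% against 0.276% (0.217% higher and 0.0591% lower). At Day 0, 2 members were higher and 2 lower in males, at Day 2, 3 and 3, and at Day 3, 6 and 12. The 6 higher at Day 3 were Ugt1a7c, Ugt2b5, Ugt2b37, Ugt2b38, Ugt3a2 and Ugt8a, all Ugt genes. The 12 lower were Ugt1a1, Ugt1a2, Ugt2b34, Gsta1, Gsta2, Gsta4, Gstm2, Gstm6, Gstm7, Gsto1, Gstt1 and Gstt3. On that day 4 of 10 proximal tubule markers were called higher in males, and 6 of 10 hepatocyte markers were called lower and 1 higher. Also lower in males were 4 of 6 thick limb and collecting duct markers, 4 of 6 adipocyte markers, 2 of 4 tubule injury markers (Havcr1 and Krt20) and 1 of 7 adrenal cortex markers tested, while 1 of 5 leukocyte markers tested (Ptprc) was higher. At Day 2, Hsd3b1 of the adrenal list and Slc7a13 of the proximal tubule list were higher in males, and at Day 5, 5 of 7 adrenal cortex markers tested were lower and Slc7a13 and Ptprc higher. The part of these cells in the calls was not tested. No Sult member was called between the sexes on any day. Among the further Day 3 calls, Ugt3a2, a transferase of other sugars, was at 673, 974, 846 and 959 CPM in males and 357, 663, 459 and 393 CPM in females (log2 fold change 0.89, SE 0.194, adjusted p = 0.0128). The Gst genes of lower fold lay between log2 fold changes of -0.37 (Gstt3) and -1.19 (Gstm6), with Gstm7 at -1.08, Gstm2 at -0.63 and Gstt1 at -0.53. With 1 mouse left out, the count was 0 at Day 0 without any 1 of female mice 2 and 3 or male mice 1 and 2 and 1 without male mouse 3, 11 at Day 2 without male mouse 4 and 14 to 27 at Day 3. In 1 fit over all 8 groups, which share 1 estimate of the spread, the count at Day 3 was 4 in place of 18 (Gsta4, Ugt2b37, Ugt2b38 and Ugt8a), and at Day 0 it was 7. At Day 5 the count was 21 once the library labelled male Day 5 mouse 1 was left out, of which 2 were higher and 19 lower in males, and was 0 without any 1 of male mice 2 and 4 or female mice 1, 3 and 4. The shares of all genes called in these refits are not given here, so the shifts are not read as particular to the members.

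After cisplatin, 2 members rose in both sexes. Gsta1, an alpha class transferase, was at 2.17, 1.17, 1.25 and 1.09 CPM in the female Day 0 mice, 6.49, 15.6, 19.8 and 6.16 CPM at Day 2, 7.64, 2.48, 6.51 and 9.18 CPM at Day 3 and 9.43, 3.27, 24 and 9.23 CPM at Day 5. All 12 females after cisplatin lay above all 4 before it. It was called at Day 2 (log2 fold change 3.03, SE 0.455, adjusted p = 0.0159) and Day 3 (log2 fold change 2.14, SE 0.439, adjusted p = 0.0465), and at Day 5 its values were log2 fold change 3.01, SE 0.551, adjusted p = 0.0571. In males it was at 0.272, 0.2, 0.518 and 0.73 CPM at Day 0, 0.44, 0.84, 0.527 and 11.1 CPM at Day 2, 2.99, 0.309, 1.58 and 0.741 CPM at Day 3 and 6.33, 2.25, 3.71 and 2.02 CPM in the Day 5 libraries. Only the Day 5 rise was called in males (log2 fold change 3.12, SE 0.589, adjusted p = 0.0122), and it passed in each of the 8 fits that left out 1 mouse, with a largest adjusted p of 0.0427. At Day 2, 1 male at 11.1 CPM stood apart from 3 between 0.44 and 0.84 CPM. Males were lower than females at Day 3 (log2 fold change -2.20, SE 0.64, adjusted p = 0.0445), with 1 male above the lowest female. In females, Gsta1 at Day 2 did not pass without any 1 of female Day 0 mouse 2 and female Day 2 mice 2 and 3 (adjusted p of 0.0633 to 0.0647), and at Day 3 it did not pass without any 1 of female Day 0 mice 1, 2 and 3 and female Day 3 mice 1, 3 and 4 (adjusted p of 0.0719 to 0.168). The sex difference at Day 3 did not pass without any 1 of female Day 3 mice 1, 3 and 4 and male Day 3 mice 2, 3 and 4 (adjusted p of 0.082 to 0.114), nor without the filter on low counts (0.126) or in 1 fit over all 8 groups (0.263).

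The windows upstream of Gsta1 and Gsta2 are shown because these 2 close relatives differed, Gsta1 being higher after cisplatin while Gsta2 was called on no day against Day 0. Gsta1 lies on the plus strand at chr9:78230419-78230668 and Gsta2 on the minus strand at chr9:78347146-78347395 (RefSeq, GRCm38.p6). Capitals mark bases that differ in the aligned part, where 184 of 239 bases were the same (77%) and 55 differed.
Gsta1: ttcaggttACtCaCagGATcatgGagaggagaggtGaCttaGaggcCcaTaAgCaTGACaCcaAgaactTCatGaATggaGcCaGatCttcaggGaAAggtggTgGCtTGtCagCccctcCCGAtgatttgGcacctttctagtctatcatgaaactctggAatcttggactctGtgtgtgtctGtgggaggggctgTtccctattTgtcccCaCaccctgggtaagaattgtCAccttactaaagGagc
Gsta2: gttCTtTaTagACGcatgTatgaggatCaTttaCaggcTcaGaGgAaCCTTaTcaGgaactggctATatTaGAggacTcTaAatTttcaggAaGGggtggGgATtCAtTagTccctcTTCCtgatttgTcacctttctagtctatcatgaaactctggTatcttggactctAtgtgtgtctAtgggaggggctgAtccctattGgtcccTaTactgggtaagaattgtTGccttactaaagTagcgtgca
Of the 100-base stretches of the Gsta1 transcripts, 80.6% were also found in other genes, Gm3776 and Gsta2 among them. The counted level of Gsta1 therefore rests on the reads that the counting could place, and how many were lost was not tested. In females Gsta2 was at 471, 753, 713 and 406 CPM at Day 0 and 334, 225, 270.5 and 357 CPM at Day 2 (log2 fold change -1.03, SE 0.305, adjusted p = 0.0774).

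Ugt1a10, 1 of the alternative first-exon genes of the Ugt1a locus, had the largest rise among the called members. The size of that rise rests on Day 0 levels that reached 0 CPM in both sexes. It was at 0.427, 0.0543, 0 and 1.33 CPM in the female Day 0 mice, 20.6, 20, 17.8 and 5.28 CPM at Day 2 and 25.7, 2.19, 19.1 and 21.5 CPM at Day 3. All females at Day 2 and Day 3 lay above all at Day 0. It was called at Day 2 (log2 fold change 5.02, SE 0.978, adjusted p = 0.0432) and Day 3 (log2 fold change 5.14, SE 1.13, adjusted p = 0.0479). At Day 5 the females were at 12.4, 8.85, 3.91 and 14.5 CPM, with a log2 fold change of 4.38 and an adjusted p of 0.116. In males it was at 0, 0.2, 0 and 0.505 CPM at Day 0, 0.762, 3.46, 1.78 and 10.1 CPM at Day 2 and 7.75, 0.928, 2.94 and 1.4 CPM at Day 3, and it was called at Day 3 (log2 fold change 4.25, SE 1.12, adjusted p = 0.03), with an adjusted p of 0.0607 at Day 2. These calls lie close to the threshold, and without the filter on low counts the adjusted p was 0.0919 and 0.0966 in females at Day 2 and Day 3. With DESeq2's size factors the Day 3 call in females was also lost (adjusted p = 0.05 after rounding). The replicate block lost the calls at Day 2 and Day 3 in females and at Day 3 in males. At Day 2 in females the gene did not pass without any 1 of female Day 0 mice 1 and 2 and female Day 2 mice 1, 2, 3 and 4 (adjusted p of 0.0558 to 0.175), at Day 3 in females it did not pass without any 1 of female Day 0 mice 1, 2 and 3 and female Day 3 mice 1, 3 and 4 (adjusted p of 0.0719 to 0.168), and at Day 3 in males it did not pass without any 1 of male Day 0 mice 1 and 2 and male Day 3 mice 1, 2, 3 and 4 (adjusted p of 0.0553 to 0.0956). Without female Day 0 mice 2 and 3 together, it was called at Day 2 (log2 fold change 4.12) and not at Day 3 (4.23).

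The window upstream of Ugt1a10, on the plus strand at chr1:88055161-88055410 (RefSeq, GRCm38.p6), is shown for its match to the letters GTTAATNAT, a core of the binding site of hepatocyte nuclear factor 1, a tubule and liver transcription factor. Capitals mark the match, which lies on the minus strand from base -74 to base -66 before the annotated start.
Ugt1a10: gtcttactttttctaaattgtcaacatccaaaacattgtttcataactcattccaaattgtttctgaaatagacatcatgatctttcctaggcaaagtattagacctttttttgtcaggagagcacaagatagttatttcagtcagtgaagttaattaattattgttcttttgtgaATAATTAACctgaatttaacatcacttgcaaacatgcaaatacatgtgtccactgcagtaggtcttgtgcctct
The search covered both strands of the 300-base windows (250 before to 50 after each start). A member was counted when any of its windows matched (52 windows for 41 members), while the share over all promoters is per window, so that the shares are not in the same unit. These letters were found in 3 of the 41 members with a window (7.32%), Ugt1a10, Ugt1a1 and Sult1d1, and in 0.801% of all 32851 windows. The letters TGACNNNGC, a core of the antioxidant response element, were found in Gsta3, Gstm5 and Gstm7 (7.32%) and in 12.4% of all windows. The letters AGAACA, found in sites of the androgen and glucocorticoid receptors, were present in 12 of the 41 members (29.3%) and in 19% of all windows. A match of letters is a description of the sequence only.

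The reads of the Ugt1a locus need care. The 6 Ugt1a members share their last exons, and between 50.3% and 60.6% of the exon bases of each overlap exons of another gene on the same strand, so that only part of their reads could be assigned to 1 gene. The Ugt1a members summed to 0 counts in male Day 0 mouse 3, a library of 30740491 reads, and to 88.5, 61.2 and 125 CPM in male Day 0 mice 1, 2 and 4. In the female Day 0 mice the sums were 51.3, 9.75, 3.16 and 494 CPM. In the females at Day 2 and Day 3 they lay between 133 and 378 CPM, and in the males on those days between 112 and 179 CPM. The spread at Day 0 thus exceeded that of any later group of females, and its source was not tested. Ugt1a7c, the most counted Ugt1a gene in males through Day 3, was higher in males at Day 3 (log2 fold change 1.39, SE 0.0746, adjusted p = 7.17e-06), at 156, 160.4, 162 and 166 CPM against 55.1, 67.4, 65.5 and 59.2 CPM, but was not called in 1 fit over all 8 groups. Ugt1a1, the bilirubin transferase, was lower in males at Day 3 (log2 fold change -1.71, SE 0.474, adjusted p = 0.0346), and this call did not pass without any 1 of female Day 3 mice 1, 3 and 4 and male Day 3 mice 2, 3 and 4 (adjusted p of 0.0573 to 0.0846), nor without the filter on low counts (0.0985) or in 1 fit over all 8 groups (0.523).

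In females, the 3 calls at Day 2 were Gsta1 and Ugt1a10, which rose, and the cytosolic sulfotransferase Sult1c2, which fell. Of all genes, 1.93% were called, 0.774% higher and 1.16% lower, against 7.32% of the members. Sult1c2 was at 75.1, 72.1, 123 and 67.7 CPM at Day 0 and 28.4, 26.1, 25.6 and 46 CPM at Day 2, without overlap (log2 fold change -1.47, SE 0.285, adjusted p = 0.0377). At Day 3 it was at 16.6, 62.5, 27.6 and 21.6 CPM, with a log2 fold change of -1.46 and an adjusted p of 0.0587. The 3 calls at Day 3 were Gsta1 and Ugt1a10, which rose, and Ugt2b38, which fell from 180.2, 60.1, 77.1 and 107 CPM to 48.2, 41.8, 41.1 and 46.3 CPM (log2 fold change -1.30, SE 0.309, adjusted p = 0.0482). Of all genes, 5.54% were called at Day 3, 1.26% higher and 4.28% lower. Among the cell markers at Day 3, 3 of 4 tubule injury markers (Havcr1, Krt20 and Lcn2) were called higher, while 2 of 10 proximal tubule markers (Miox and Slc7a13), 2 of 6 adipocyte markers (Retn and Ucp1), Lyz2 and Atp6v1g3 were called lower. At Day 2, Retn, Ucp1 and Lyz2 were lower. The part of these cells in the members' changes was not tested. The abundant Sult1d1 was at 313, 244, 257 and 442 CPM at Day 0 and 710.3, 402, 751 and 876 CPM at Day 3 (log2 fold change 1.08, adjusted p = 0.0564). The count of called members moved with single mice. At Day 2 it was 13 with female Day 0 mouse 4 left out, 1 without female Day 0 mouse 1 or female Day 2 mouse 1, and 0 without any 1 of female Day 0 mouse 2 and female Day 2 mice 2 and 3. At Day 3 it was 0 without any 1 of female Day 0 mice 1, 2 and 3 and female Day 3 mice 1, 3 and 4 and 22 without female Day 0 mouse 4, and at Day 5 it was 6 without female Day 0 mouse 4 and 1 with female Day 5 mouse 2 left out. With female Day 0 mouse 4 left out, 9 of the 22 members called at Day 3 were higher and 13 lower. Shares of all genes called in these refits are not given here, so the shifts are not read as particular to the members. With female Day 0 mice 2 and 3 both left out, 2 members were called at Day 2 and 0 at Day 3, and with female Day 3 mice 3 and 4 both left out, 0 at Day 3.

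In males, no member was called at Day 2. Without male Day 0 mouse 3 there was 1, and without male Day 0 mouse 4 there were 2. At Day 3 the calls were small falls in 4 Gst genes beside the rise of Ugt1a10, 12.8% of the members tested against 24.5% of all genes (11.4% higher and 13.1% lower). Gsta4 fell from 29.6, 22.4, 35.5 and 42.5 CPM to 20.6, 15.7, 18.4 and 17.2 CPM (log2 fold change -0.89, SE 0.211, adjusted p = 0.0226). Gstm2 was at 55.1, 56.2, 35 and 66.9 CPM at Day 0 and 36.8, 36.4, 36.1 and 35.6 CPM at Day 3 (log2 fold change -0.58, SE 0.171, adjusted p = 0.041), with 1 Day 0 mouse below the Day 3 mice. Gstp1, the pi class transferase, had a log2 fold change of -0.35 (adjusted p = 0.0356) and Gstt3, of the theta class, -0.51 (adjusted p = 0.0393). Of the cell markers, 3 of 6 adipocyte markers (Adipoq, Lep and Retn), Miox, Apoa2 and Atp6v1g3 were called lower and Lcn2 and Cubn higher, and their part in these changes was not tested. The count was 0 without any 1 of male Day 3 mice 1, 2, 3 and 4, 1 without any 1 of male Day 0 mice 1 and 2 and 8 without male Day 0 mouse 3.

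Against Day 0, more members were called in the male Day 5 libraries than in the other 5 comparisons with all mice kept. Of 34 members tested 10 were called (29.4%), 6 higher and 4 lower, against 19.2% of all genes (8.98% higher and 10.2% lower). The largest falls were those of Ugt2b37, Ugt2b38 and Ugt8a, which were higher in males at Day 2 and Day 3. Ugt2b37 was at 167, 144, 173 and 60.6 CPM at Day 0 and 2.4, 0.282, 1.39 and 1.89 CPM at Day 5 (log2 fold change -6.35, SE 0.562, adjusted p = 0.00204), beside 0.527 to 16 CPM in the female Day 0 mice. Ugt2b38 went from 993, 1002, 1192 and 529 CPM to 45.8, 14.7, 7.73 and 11.5 CPM (log2 fold change -5.47, SE 0.639, adjusted p = 0.00381), and Ugt8a from 74, 77, 62.7 and 52.2 CPM to 11.7, 24.2, 18.6 and 13.5 CPM (log2 fold change -1.88, SE 0.263, adjusted p = 0.00543). Each of these 3 passed in each of the 8 fits that left out 1 mouse, with a largest adjusted p of 0.0226 for Ugt2b38, 0.0154 for Ugt2b37 and 0.0239 for Ugt8a. Sult1c2 fell as well, to 33.1, 16.9, 10.2 and 13.6 CPM from 55.5, 51.1, 91.6 and 52.9 CPM (log2 fold change -1.69, SE 0.371, adjusted p = 0.0171). Proximal tubule markers fell alongside, 5 of 10 being called lower and none higher, with a median log2 fold change of -2.21 over the list. Of the adrenal cortex markers, 4 of 5 tested were called higher, as were 2 of 4 tubule injury markers (Krt18 and Lcn2) and 2 of 6 thick limb and collecting duct markers (Aqp2 and Atp6v1g3), the adrenal sum being 31.6 to 159 CPM against 0.691 to 17.8 CPM at Day 0. The part of these lists in the members' changes was not tested. Ugt3a2, at 453, 80.2, 42.5 and 24.8 CPM against 1208, 1183, 348 and 624 CPM, had log2 fold change -2.40, SE 0.861, adjusted p = 0.0763.

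Beside Gsta1, 5 members rose in the male Day 5 libraries. Gsta4 went from 29.6, 22.4, 35.5 and 42.5 CPM to 129, 78.5, 78.8 and 67.5 CPM (log2 fold change 1.53, SE 0.269, adjusted p = 0.0102), the reverse of its direction at Day 3. Gstm2 went to 72.7, 182, 124 and 206 CPM (log2 fold change 1.56, SE 0.341, adjusted p = 0.0168). The phenol sulfotransferase Sult1a1 rose from 14.1, 12.5, 14.1 and 20.7 CPM to 30.6, 47.5, 109 and 41.5 CPM, without overlap (log2 fold change 2.00, SE 0.393, adjusted p = 0.0134). Sult2b1, which sulfates cholesterol and hydroxysteroids, was at 1.69, 2.75, 2.76 and 0.955 CPM at Day 0 and 2.62, 6.48, 5.25 and 9.58 CPM at Day 5 (log2 fold change 1.62, SE 0.499, adjusted p = 0.0483), with 1 Day 5 library inside the Day 0 range. Sult5a1 was at 2.07, 2, 1.45 and 2.7 CPM and 1.75, 6.34, 14.1 and 6.07 CPM (log2 fold change 1.88, SE 0.559, adjusted p = 0.0433), again with 1 Day 5 library inside the Day 0 range. Gsta4 and Sult1a1 were called in all 8 fits that left out 1 mouse. Gstm2 did not pass without any 1 of male Day 0 mice 1 and 2 and male Day 5 mice 2 and 4 (adjusted p of 0.0516 to 0.0567), Sult1c2 did not pass without any 1 of male Day 5 mice 2, 3 and 4 (adjusted p of 0.0515 to 0.0596), Sult2b1 did not pass without any 1 of male Day 0 mice 1, 2 and 4 and male Day 5 mice 2, 3 and 4 (adjusted p of 0.0738 to 0.138) and Sult5a1 did not pass without any 1 of male Day 0 mice 1, 2, 3 and 4 and male Day 5 mice 2, 3 and 4 (adjusted p of 0.0522 to 0.144).

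When the library labelled male Day 5 mouse 1 was left out, 17 members were called at Day 5, 6 higher and 11 lower, and all 10 of the calls above were among them. The share of all genes called in that fit is not given here, so the larger count is not read as particular to the members. The log2 fold change was then -6.71 for Ugt2b37, -6.25 for Ugt2b38, 2.22 for Sult1a1, 1.31 for Gsta4 and 1.80 for Gstm2. The count was 6 without either of male Day 5 mice 2 and 4, and 16 in 1 fit over all 8 groups. Male Day 5 mice 2, 3 and 4 are the libraries in which mitochondrial genes took 78.9% to 79.8% of the counts, and their part in these results was not tested. The library labelled male Day 5 mouse 1 was the highest of its group for Sult1d1 (722 CPM against 106 to 196), Ugt3a2 (453 against 24.8 to 80.2), Gsta2 (228 against 18.3 to 51.9), Ugt1a2 (115 against 2.7 to 17.3) and Ugt2b34 (46 against 2.29 to 8.74).

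**Figure D4:**
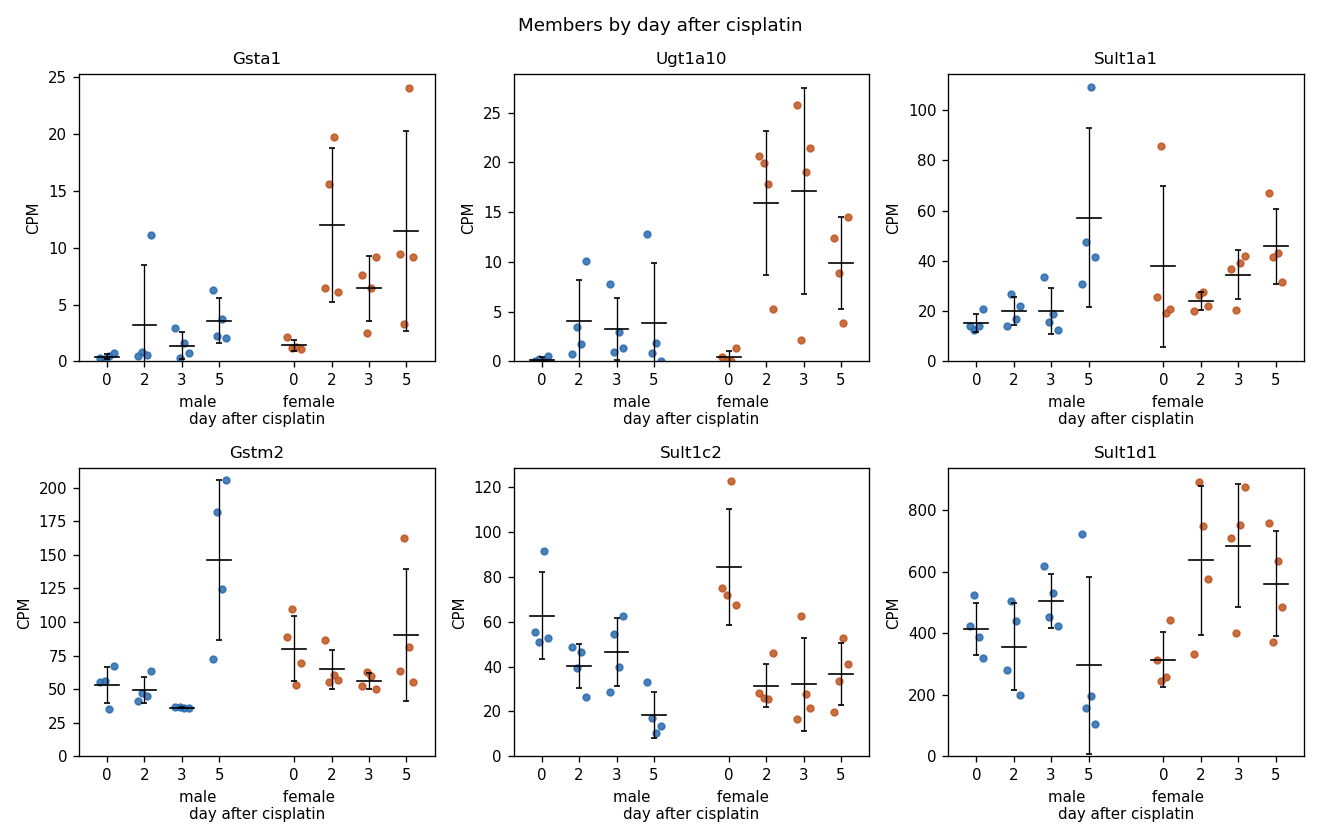
Level of 6 members in each kidney (vertical axis, CPM) by day after cisplatin (horizontal axis), males in blue and females in orange, with the group mean as a line and SD as bars, cut at 0 (n = 4). In females, Gsta1 and Ugt1a10 lie above all Day 0 values at Day 2 and Day 3, Sult1a1 lies higher in the male Day 5 libraries than in the male Day 0 mice, as does Gstm2, and Sult1c2 is lower at Day 2 in females and at Day 5 in males.

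The family sums are set beside the proximal tubule marker sum because, among males, the Ugt sum and the markers were both lowest in the male Day 5 libraries. At marker sums of 578.8 to 1141 CPM, the 3 libraries of male Day 5 mice 2, 3 and 4 held 66.2 to 169 CPM of Ugt members and 1556 to 1576 CPM of Gst members. The male Day 0 mice, at marker sums between 10460 and 12160 CPM, held 1514 to 2757 CPM of Ugt members and 1652 to 1860 CPM of Gst members. The library labelled male Day 5 mouse 1 had a marker sum of 4653 CPM and 813 CPM of Ugt members. The female Day 0 mice had marker sums of 9211 to 14060 CPM with 313 to 1313 CPM of Ugt members. In females after cisplatin, Day 2 mouse 3, Day 3 mice 1, 3 and 4 and Day 5 mice 1 and 2 had marker sums of 2765 to 4048 CPM, and their Ugt sums of 485 to 900.4 CPM lay within the female Day 0 range. Of the 9 Ugt members tested in males at Day 5, 3 were called lower (Ugt2b37, Ugt2b38 and Ugt8a) and none higher, while Ugt2b34 (log2 fold change 0.12) and Ugt1a2 (2.86) did not pass. The part of the lower tubule marker level in the Ugt sum and in these 3 calls was not tested.

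**Figure D5:**
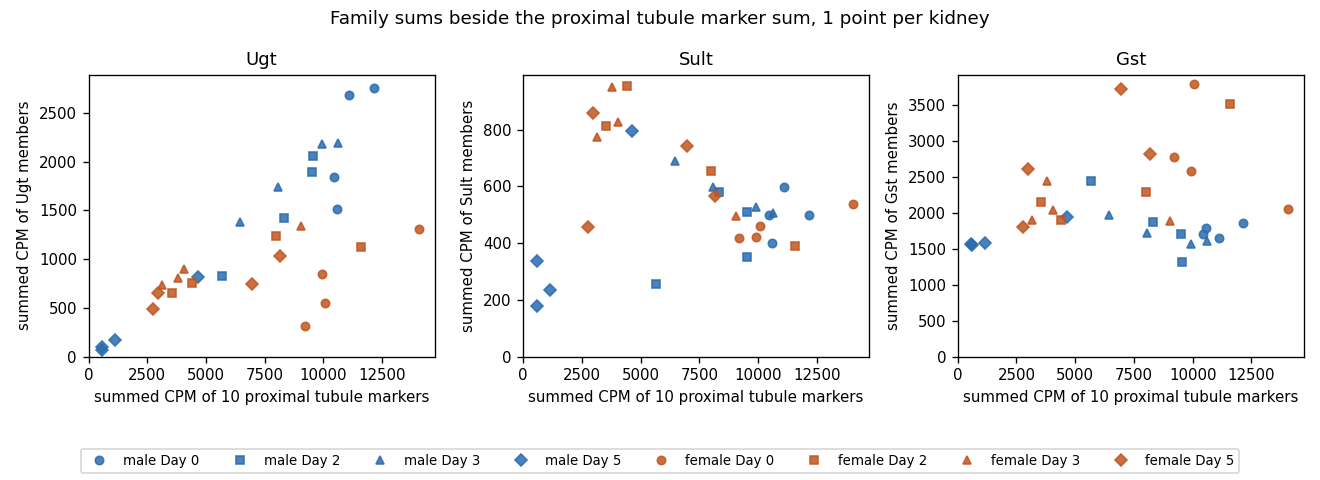
Summed level of the Ugt, Sult and Gst members (vertical axes, CPM) against the summed level of 10 proximal tubule markers (horizontal axes, CPM), 1 point per kidney, with colour for sex and symbol for day. Male Day 5 mice 2, 3 and 4 sit at the lower left for Ugt, between 66.2 and 169 CPM, while their Gst sums, between 1556 and 1576 CPM, sit near those of the male Day 0 mice.

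For the question of unequal responses to cisplatin in males and females, the interaction of sex and day was fitted for Day 2 and Day 3. No member of 42 was called in either, where 0% and 0.0114% of all genes were called. At an unadjusted p under 0.05 there were 4 members at Day 2 (Gsta2, Sult1d1, Ugt2a3 and Ugt2b36), beside 738 of 17467 genes, and 3 at Day 3 (Gsta2, Sult1d1 and Ugt2b5), beside 1252 of 17598 genes. Of the summed CPM of Ugt2b36, Ugt2a3 and Ugt2b5, 92%, 58.6% and 35.8% came from female Day 0 mouse 2. The DESeq2 Wald test called 1 member on each day. The interaction for Gsta1 was -0.18 at Day 2 (SE 1.27) and -0.50 at Day 3 (SE 0.859), errors wide enough to hold large differences in either direction. For Ugt1a10 it was -0.47 (SE 1.69) and -0.89 (SE 1.71), and for Sult1d1 it was -1.23 (SE 0.458) and -0.84 (SE 0.356). For Gsta2 it had the other sign, at 1.19 (SE 0.446) and 1.23 (SE 0.413). The adjusted p of Gsta2 at Day 3 was 0.538.

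A group of members was carried by 1 library. Female Day 0 mouse 2, whose hepatocyte marker sum was 12340 CPM, held 92% of the summed CPM of Ugt2b36 over the 32 libraries, 87.4% of Ugt2b1, 85.8% of Sult2a8, 82.4% of Sult2a1, 64.7% of Gstm3 and 58.6% of Ugt2a3, against an even share of 3.12%. Sult2a1 and Sult2a8 belong to the Sult2a subfamily, which sulfates steroids and bile acids in liver. In that mouse Ugt2b36 was at 43.9 CPM and Sult2a8 at 26.3 CPM, and in no other library did either exceed 1.82 CPM. Ugt2b35 (45.3%) and Ugt2b5 (35.8%) also had over 20% of their level there. Sult1a1 was at 85.6 CPM in that mouse and 19.3 to 25.6 CPM in the other female Day 0 mice. All 10 hepatocyte markers were detected in each group, and their part in these members' levels was not tested.

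The other steps of the pathway are given for genes from lists of 13 cofactor supply genes, 11 mercapturate genes, 6 further glutathione transferases, 4 deconjugating enzymes and 11 regulators. In females, Gclc, the catalytic subunit of the first enzyme of glutathione synthesis, rose at Day 2 (log2 fold change 1.75, SE 0.291, adjusted p = 0.0221) and Day 3 (log2 fold change 1.73, SE 0.237, adjusted p = 0.0465), from 84 to 135 CPM at Day 0 to 263 to 506 CPM at Day 2. Nfe2l2, which encodes the oxidative stress factor NRF2, was called higher in females at Day 2 (log2 fold change 0.93) and Day 3 (log2 fold change 1.06, SE 0.219, adjusted p = 0.0465), and in males at Day 3 (log2 fold change 0.56, SE 0.148, adjusted p = 0.0293). Of 12 cofactor genes tested, 1 rose at Day 2 and 2 at Day 3 in females, and none fell, where 0.774% and 1.26% of all genes were called higher. In the male Day 5 libraries, 6 of the 12 fell and none rose, where 10.2% of all genes were called lower and 8.98% higher. Among the 6 were Gss (log2 fold change -1.82, SE 0.374, adjusted p = 0.0141), Gclm (-1.37), Gsr (-1.41) and Cbs (-2.29). The median log2 fold change of the 12 was -0.85 in those libraries. There, 5 of 10 proximal tubule markers were called lower and 4 of 5 adrenal cortex markers tested higher, and the mitochondrial share was above that of Day 0. The part of these in the falls was not tested, and no fit left out a mouse for these genes.

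Of 11 enzymes that process glutathione conjugates to mercapturates, 6 fell in the male Day 5 libraries, none rose and 5 did not pass, beside 10.2% of all genes called lower. Acy3, which removes the acetyl group from mercapturates, went from 1401 to 3391 CPM in male Day 0 mice to 65.1 to 332 CPM (log2 fold change -3.67, SE 0.545, adjusted p = 0.00633). Nat8, which adds that group, went from 97.9 to 489.6 CPM to 10.4 to 47.1 CPM (log2 fold change -3.60, SE 0.65, adjusted p = 0.0109), and γ-glutamyltransferase Ggt1 from 884 to 2010 CPM to 126 to 513 CPM (log2 fold change -2.18, SE 0.467, adjusted p = 0.016). The dipeptidase Dpep1 (-1.26), the β-lyase Kyat1 (-1.52) and Nat8f1 (-3.06) were the other 3. In the same libraries 5 of 10 proximal tubule markers were called lower (median log2 fold change -2.21). Mitochondrial genes took 78.9% to 79.8% of the counts of mice 2, 3 and 4. The part of either in these falls was not tested, and no fit left out a mouse for these genes. Earlier, 3 of the 11 fell in males at Day 3 (13.1% of all genes were called lower), with Acy3 at -1.23, and 2 in females at Day 3 (all genes 4.28%), with Nat8f1 at -1.74. Between the sexes at Day 3, 5 of the 11 were higher in males (Acy3, Anpep, Ggt1, Kyat1 and Nat8) and 1 was lower (Kyat3), where 10.6% of all genes were called higher and 10.7% lower. The log2 fold changes of Acy3 and Nat8 were 1.63 and 2.00. On that day 4 of 10 proximal tubule markers were also called higher in males, and their part was not tested. The deconjugating enzymes Gusb (-1.39) and Arsb (-1.67) fell in the male Day 5 libraries, 2 of 3 tested beside 10.2% of all genes called lower. The membrane-bound transferase Mgst1 (1.01) and the prostaglandin E synthase Ptges (1.14) rose there, 2 of 6 beside 8.98% of all genes called higher. At Day 3, 3 of the 6 (Mgst2, Mgst3 and Ptges) were lower in males beside 10.7% of all genes, with Mgst2 at -1.37, and none was higher. Of the regulators, the fatty acid receptor Ppara rose in males at Day 2 (log2 fold change 1.78, SE 0.334, adjusted p = 0.0387) and Day 3 (1.71), the bile acid receptor Nr1h4 fell in the male Day 5 libraries (-1.84), and the estrogen receptor Esr1 fell in females at Day 3 (-1.15) and was higher in males on that day (1.83).

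The 18 members tested and never called included abundant ones. Gstm1 was at 263 to 558 CPM in the male Day 0 mice and 509 to 677 CPM in the male Day 5 libraries, with log2 fold changes against Day 0 between -0.13 and 0.57 over the 6 contrasts. Sult1d1 was at 321 to 524 CPM in male Day 0 mice and at 722, 157, 196 and 106 CPM in the male Day 5 libraries, which lay on both sides of the Day 0 range (log2 fold change -0.42, SE 0.54, adjusted p = 0.608). Gstz1, which acts in tyrosine breakdown, was at 145 to 298 CPM in male Day 0 mice and 84.7 to 182 CPM at Day 5, and Gstk1, of mitochondria and peroxisomes, at 48.4 to 73 CPM and 38 to 60.4 CPM. The others were Gsta3, Gstm4, Gstm5, Gsto2, Gstp2, Gstp3, Gstt2, Sult1b1, Ugt1a6a, Ugt1a6b, Ugt2a3, Ugt2b35, Ugt2b36 and Ugt3a1. A p that missed the threshold with 4 mice a group does not show that a gene was the same in both groups.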

How the data were processed

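Kidney RNA of 32 mice was sequenced by the authors as paired-end 150 bp reads, and the labels gave the sex and time point that define the 8 groups. The deposited table holds raw read counts per gene for 54532 genes, and a deposited FPKM table was made from the same counts. The authors' methods name GRCm38 and the submitters' processing notes name HTSeq, DESeq2 and GRCm39. Start and end of 42 of the 46 members equalled those of GENCODE M21 (GRCm38), and the strandedness is not given in the sources used here. Counts were tested with edgeR 4.0.16 (R 4.3.3; TMM, filterByExpr, robust quasi-likelihood F test, Benjamini-Hochberg over all genes tested), each contrast on the groups it compares. FPKM was used for levels between genes only. The mouse numbers were not used as pairs in the main test. On simulated counts of Day 2 against Day 0 males, edgeR called 198 of 200 changed genes with 6 false calls among 16215 genes, and DESeq2 called 198 with 27 false calls among 16701 genes. The share of true and false calls among the members themselves was not tested. Alternatives were DESeq2 1.42.0 (size factors, Wald test), no filter, 1 fit over all 8 groups, the replicate block and each mouse left out. Members called with an absolute log2 fold change over 1.5 in any contrast, and the 2 of highest mean FPKM in each family, were described by mouse. Listed pathway genes were named when called with one over 1, and other members in counts of calls. The members, lists and tests were chosen with earlier results of these data known. Counts per library limit the precision, and a level of 3 counts or fewer is near the detection limit. Promoter windows of 41 members came from RefSeq (GRCm38.p6) and were aligned with Biopython 1.88.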

Additional observations from a re-analysis of the deposited data

Results flagged for a closer look

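Single libraries stood apart from the other 3 of their group in 23 of 144 sets of 4 mice, 18 members in 8 groups, by a gap above 0.829 of the group's range (Dixon's critical value for 4 samples). Chance flags about 1 in 20 independent, normally distributed sets. These sets are neither, since the members were chosen for large calls or high level and several share a library, so the number of sets that stood apart is not compared with chance. In the library labelled male Day 5 mouse 1, Gsta2 was at 228 CPM (18.3 to 51.9 in the other 3), Sult1d1 at 722 CPM (106 to 196), Ugt3a2 at 453 CPM (24.8 to 80.2), Ugt1a2 at 115 CPM (2.7 to 17.3), Ugt2b34 at 46 CPM (2.29 to 8.74) and Ugt1a10 at 12.8 CPM (0 to 1.85).

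In the Day 0 females, Gsta1 was at 2.17 CPM in mouse 1 (1.09 to 1.25), Sult1a1 at 85.6 CPM in mouse 2 (19.3 to 25.6), Sult1c2 at 123 CPM in mouse 3 (67.7 to 75.1), Ugt1a1 at 4.27 CPM in mouse 4 (0 to 0.394) and Ugt1a2 at 392 CPM in mouse 4 (1.63 to 38.3). In later females, Gstm1 was at 1190 CPM in Day 2 mouse 1 (450 to 558) and Gstm2 at 86.5 CPM in the same mouse (55.6 to 60.8). Sult1c2 was at 46 CPM in Day 2 mouse 4 (25.6 to 28.4), Ugt1a2 at 301 CPM in Day 3 mouse 2 (109 to 138) and at 192 CPM in Day 5 mouse 4 (74 to 83.4), and Ugt8a at 10.8 CPM in Day 3 mouse 3 (6.98 to 7.24).

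In males before Day 5, Sult1c2 was at 91.6 CPM in Day 0 mouse 3 (51.1 to 55.5) and Ugt1a2 at 19.5 CPM in Day 0 mouse 4 (0 to 1.69). At Day 2, Gsta1 was at 11.1 CPM (0.44 to 0.84) and Gsta4 at 74.8 CPM (20.4 to 27.7) in mouse 4, and Ugt2b34 was at 12.1 CPM in mouse 1 (16.4 to 16.7). At Day 3, Gstm1 was at 618 CPM in mouse 1 (520 to 530).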

How the results depend on the processing

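The 34 calls of single members that were followed kept their direction under every alternative. The balance of higher and lower members among those called did turn in some fits, as given above for males at Day 5 and females at Day 3. The directions of pathway genes, medians and family sums under the alternatives were not tested. Counts of called members in males were 0 at Day 2, 5 at Day 3 and 10 at Day 5, in females 3, 3 and 0, and between the sexes 4 at Day 0, 6 at Day 2, 18 at Day 3 and 1 at Day 5. With DESeq2's Wald test they were 2 and 8 in males at Day 2 and Day 3, 5, 8 and 4 in females at Day 2, Day 3 and Day 5, 5 between the sexes at Day 5, and 1 for each interaction. With 1 fit over all 8 groups they were 2 and 16 in males at Day 2 and Day 5, 8, 9 and 4 in females, and 7, 4 and 7 between the sexes at Day 0, Day 3 and Day 5. Without the low-count filter they were 2 in males at Day 3, 2 in females at Day 5 and 3 between the sexes at Day 5, and with DESeq2's size factors 1 in females at Day 3. The cause of these shifts was not tested, and the calls over all genes under each setting are not given here.

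The mouse numbers were not used as pairs in the main test, since in no contrast did every pair of same-numbered mice deviate together (correlations of deviations from -0.415 to 0.481). Between the sexes at Day 0, however, the correlation was 0.272, 0.444 and 0.481 for mice 1, 3 and 4, and -0.0737 for mouse 2. With the replicate block the counts were 0 in males at Day 3, 1, 0 and 1 in females at Day 2, Day 3 and Day 5, and 7 and 0 between the sexes at Day 0 and Day 5. With 1 mouse left out they ranged from 0 to 2, 0 to 8 and 6 to 17 in males at Day 2, Day 3 and Day 5, from 0 to 13, 0 to 22 and 0 to 6 in females, and from 0 to 4, 4 to 11, 14 to 27 and 0 to 21 between the sexes on the 4 days in order. Both interactions stayed at 0. Leaving out 2 mice together was chosen after seeing the data. Without female Day 0 mice 2 and 3 the count was 0 in females at Day 3 and 0 between the sexes at Day 0, without female Day 3 mice 3 and 4 it was 0 in females at Day 3, and without male Day 2 mice 2 and 4 it was 11 between the sexes at Day 2. Of the single members, under the planned settings other than leaving out a mouse, 151 values kept their side of the threshold and 19 did not. With 1 mouse left out, 179 kept it and 93 did not, and with 2 mice left out together, 14 kept it and 10 did not. The high mitochondrial share lowered the effective library size of 4 Day 5 libraries, which limits members of low level there.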
